A study of Mus musculus with 4 samples.

Results

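Divergent gene pair promoters are stretches of DNA from which 2 protein-coding genes are transcribed in opposite directions, away from each other. They were chosen from gene positions alone, with no measured value. A pair needed transcription start sites (TSSs) of different protein-coding genes on opposite strands, with the minus-strand TSS at the lower coordinate and at most 1 kb between them in the mouse genome (build mm10, GENCODE vM21 basic annotation). This gave 999 pairs, which hold 1966 of 21851 protein-coding genes (9.0%), 32 of them in more than 1 pair. A listed region of open chromatin counted as a member when it overlapped the stretch between paired TSSs or lay within 500 bp of it, and 1589 of 121574 regions (1.31%) did. The other 22844 regions with their midpoint within 1 kb of a protein-coding TSS served as the comparison.

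Shared promoters of this kind are common in mammals. They are usually rich in CpG dinucleotides, mostly lack a TATA box, and often belong to genes that every cell needs, such as those for DNA repair, mitochondrial proteins and chaperones. Because the genes point away from each other, their transcription machineries assemble side by side in a shared gap between nucleosomes, the protein spools on which DNA is wound.

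The material was dental mesenchyme, the connective tissue of the tooth, from the incisors of 4-week old wild-type C57BL/6 mice, with no treatment. ATAC-seq was used, in which a transposase cuts and tags DNA where chromatin is open, so that the number of reads in a region reflects its accessibility. The 4 samples are sequencing lanes that share 1 column of values, so they stand here for 1 library and there is no second group. All comparisons below are between kinds of promoter within that library, with no replicate and no test. The 95% intervals are exact Poisson (counts) or exact binomial (shares) intervals and cover counting error only, and neighbouring regions and paired genes are not independent of each other.

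The stretches between the TSSs are printed first, since they are the DNA that each pair shares. All are from mm10, on the plus strand, 5′ to 3′, in lower case, and begin after the minus-strand TSS and end before the plus-strand TSS. Capitals mark matches, on either strand, to any of 12 short motifs that were searched. The motifs that occur in the printed sequences are CCGGAAG for the ETS family, CCAAT for NFY, GGGCGG for SP1, GCGCATGC for NRF1, ACTACAA for ZNF143 and TATAAA for the TATA box. The first set holds close pairs: Zfp91/Lpxn with the most reads of all (chr19:12796127-12796192), Vmac/Ndufa11 with an NRF1 palindrome (chr17:56717681-56717766), Hspd1/Hspe1 with an ETS palindrome (chr1:55088025-55088131), and the 3 pairs with the most reads among those at most 100 bp apart that have an ETS match between their TSSs and a strongest region over both. These 3 are Nudt6/Spata5 (chr3:37420212-37420297), Bbip1/Shoc2 (chr19:53944229-53944305) and Sdhaf2/Cpsf7 (chr19:10525183-10525265), which were chosen after their values were seen.
Zfp91/Lpxn: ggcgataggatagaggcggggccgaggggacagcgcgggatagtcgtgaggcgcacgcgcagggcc
Vmac/Ndufa11: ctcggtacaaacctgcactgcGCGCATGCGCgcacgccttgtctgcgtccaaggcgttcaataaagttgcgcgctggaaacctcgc
Hspd1/Hspe1: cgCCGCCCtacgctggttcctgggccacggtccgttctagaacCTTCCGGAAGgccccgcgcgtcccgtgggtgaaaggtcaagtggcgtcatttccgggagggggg
Nudt6/Spata5: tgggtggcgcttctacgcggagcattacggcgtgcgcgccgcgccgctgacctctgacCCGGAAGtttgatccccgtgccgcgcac
Bbip1/Shoc2: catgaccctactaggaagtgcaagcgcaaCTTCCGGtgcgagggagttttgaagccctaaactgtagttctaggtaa
Sdhaf2/Cpsf7: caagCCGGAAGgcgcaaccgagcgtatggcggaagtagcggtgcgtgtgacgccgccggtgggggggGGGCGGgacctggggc

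The second set shows wider pairs and the contrast between a histone pair and a collagen pair. Usp5/Cdca3 (chr6:124829485-124829687), Setd3/Ccnk (chr12:108179315-108179578) and Ggps1/Arid4b (chr13:14063489-14063784) had the most reads among pairs over 200 and up to 300 bp apart that have at least 2 NFY matches between their TSSs and a strongest region over both, and were likewise chosen after their values were seen. Usp5/Cdca3 is also the cell cycle pair with the most reads, Hist1h2ac/Hist1h2bc (chr13:23683949-23684198) the histone pair with the most, and Col4a4/Col4a3 (chr1:82586850-82586975) the collagen pair. Hist1h2ac/Hist1h2bc carries 3 NFY matches and 1 TATA match, and none of the 12 motifs is spelled out in Col4a4/Col4a3.
Setd3/Ccnk: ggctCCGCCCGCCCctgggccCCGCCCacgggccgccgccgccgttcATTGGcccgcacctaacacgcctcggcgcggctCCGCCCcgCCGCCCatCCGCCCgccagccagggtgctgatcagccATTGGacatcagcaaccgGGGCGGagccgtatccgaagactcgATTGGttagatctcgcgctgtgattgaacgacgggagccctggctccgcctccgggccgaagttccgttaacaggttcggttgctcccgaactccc
Ggps1/Arid4b: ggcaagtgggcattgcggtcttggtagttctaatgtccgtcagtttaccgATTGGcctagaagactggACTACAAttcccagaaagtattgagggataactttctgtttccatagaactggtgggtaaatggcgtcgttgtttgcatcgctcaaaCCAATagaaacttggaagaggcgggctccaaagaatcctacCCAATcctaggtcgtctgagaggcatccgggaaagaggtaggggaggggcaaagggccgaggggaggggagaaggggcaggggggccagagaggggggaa
Usp5/Cdca3: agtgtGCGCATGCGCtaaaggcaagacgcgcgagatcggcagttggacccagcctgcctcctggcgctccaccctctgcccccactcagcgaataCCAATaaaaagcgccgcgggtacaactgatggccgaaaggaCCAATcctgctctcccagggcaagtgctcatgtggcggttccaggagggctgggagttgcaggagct
Hist1h2ac/Hist1h2bc: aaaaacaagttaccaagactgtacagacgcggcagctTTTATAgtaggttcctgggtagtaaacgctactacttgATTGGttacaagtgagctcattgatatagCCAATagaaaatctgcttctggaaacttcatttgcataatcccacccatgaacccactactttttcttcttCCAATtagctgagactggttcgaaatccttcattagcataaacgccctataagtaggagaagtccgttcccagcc
Col4a4/Col4a3: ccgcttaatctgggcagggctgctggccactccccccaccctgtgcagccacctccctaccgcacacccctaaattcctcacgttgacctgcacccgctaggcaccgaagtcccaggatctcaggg

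The library held 2297894 reads in the 121574 regions, with a median of 7 reads per region. The marker check of the tissue gave a listed promoter region for 9 of 10 dental mesenchyme genes (Barx1 had none), with 836 reads in all and up to 164 at 1 gene. The odontoblast genes Dspp and Dmp1 had 18 and 9 reads. Among markers of other cell types, leukocyte genes had a region at 0 of 3 and endothelial genes at 1 of 2, Cdh5 with 13 reads. Epithelial genes had one at 2 of 3, Krt14 with 28 reads and Epcam with 25, above both odontoblast genes. The part of such cells in the values below was not tested.

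Most divergent pair promoters had a listed region, which may hold few or no reads in this library. Of the 999 pairs, 925 had at least 1 listed region (92.6%, 95% interval 90.8 to 94.1%), and 74 had none. Counted gene by gene, with a window of 500 bp around the most upstream TSS, 91.3% of the 1966 genes in pairs had a region (89.9 to 92.5%), against 57.6% of the 19885 protein-coding genes outside pairs (56.9 to 58.3%). Among genes with a region, those in pairs had 99 reads at the median and 54 and 163 at the quartiles, against 59, 25 and 113 reads for those outside pairs. At least 100 reads were found at 49.6% of the genes in pairs that had a region, against 29.9% of the genes outside pairs that had one. Whether the region list used here is whole is not known, and stretches around some widely used genes hold no region, so a missing region in any share below may be a gap in the list.

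The share of genes with a region was highest where the neighbour was a close protein-coding gene. Genes that shared a promoter with a second protein-coding gene had a region in 91.3% of cases and a median of 99 reads. Genes paired with a long noncoding RNA gene, which yields RNA but no protein, had a region in 81.5% of 994 cases (78.9 to 83.9%) and a median of 81 reads. Where the head-to-head partner lay 1 to 5 kb away, 60.3% of 865 genes had a region (57.0 to 63.6%), with a median of 53.5 reads. For the 18026 remaining genes these values were 56.2% (55.4 to 56.9%) and 58 reads. The median CpG ratio of the promoters (observed over expected CpG) moved with this order, at 0.819, 0.794, 0.591 and 0.535, and its part was not tested.

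**Figure D1:**
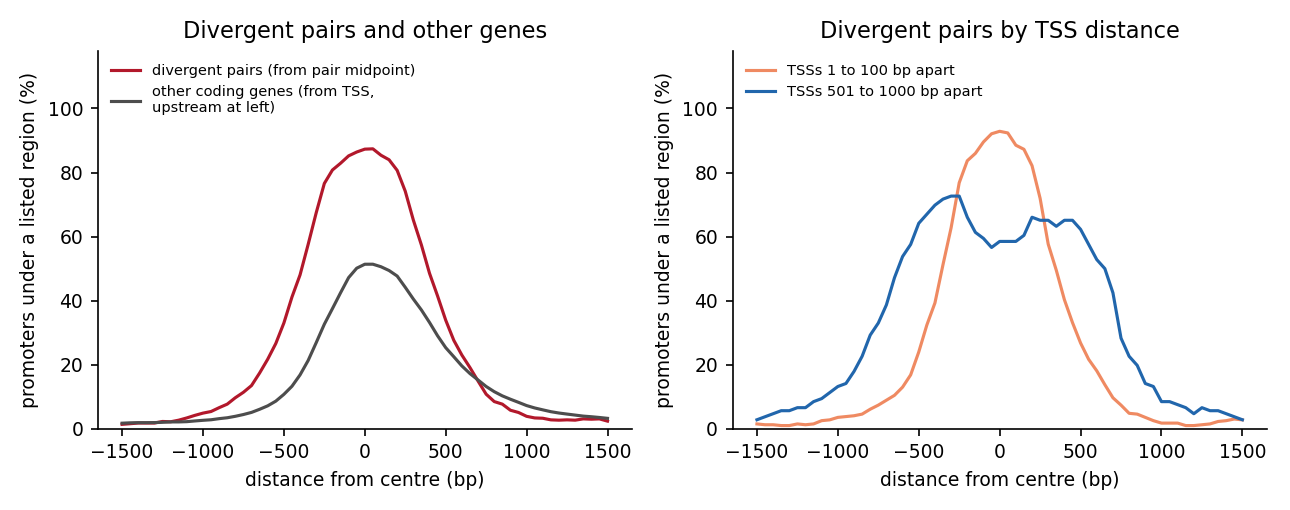
Percent of promoters under a listed region (y axis) by distance in bp from the centre (x axis). Left, the 999 divergent pairs around the midpoint of their TSSs and the 19885 other genes around their TSS; right, pairs 1 to 100 bp and over 500 bp apart. At the centre 87.3% of pairs and 51.4% of other genes lay under a region, and the pairs over 500 bp apart show a dip to 58.5% between shoulders of up to 72.6%.

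Averaged over pairs, coverage was near equal on both sides of the midpoint. The minus-strand gene always lies at left, so this average does not show that single pairs are symmetric. Other genes were turned by their direction of transcription, so that their left is upstream and their right lies inside the gene. At 500 bp to the left and right of the pair midpoint, 33.0% and 33.9% of pairs lay under a region, against 10.8% upstream and 25.3% downstream of other genes' TSSs at the same distance. At the centre the values were 87.3% and 51.4%.

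Region by region, divergent members were more accessible than other promoter regions. They had a median of 34 reads (quartiles 3 and 111), against 14 reads (3 and 61) for the other promoter regions. They were also wider, with a median of 492 bp against 377 bp, and per kb of length their median was 67.1 reads against 38.4 reads. At least 100 reads were found in 27.6% of members (25.4 to 29.9%) and 15.0% of other promoter regions (14.5 to 15.4%). The lower quartile was 3 reads in both sets, and 97 members (6.10%) had 0 reads, against 1183 other promoter regions (5.18%).

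Members made up 6.50% of the 24433 promoter regions but 14.0% of the 100 with the most reads and 14.2% of the top 500. Among promoter regions with 10 to 49 reads the share was 4.15%, and among those with 300 or more it was 14.3%. The highest value was not at a divergent pair: the top member had 775 reads and the top region among other promoters had 2150. In all, members held 112617 reads, 4.90% of the reads in regions.

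The ratio of the medians, 2.43 as given, varied with what was compared. Counting only regions that overlap the stretch between the TSSs, with no margin, gave 85 reads against 13, a ratio of 6.54. The sides follow unlike rules as reported too, and are then more unlike. The other regions kept their rule of 1 kb and took in the flanking regions dropped from the members (n = 1010 and 23423). Taking the strongest region of each promoter alone, the median was 97 reads for 900 divergent promoters, against 56 reads for 11260 others and a ratio of 1.73. Weighting the other regions to the CpG content of the members gave a ratio of 1.62, and both steps together gave 1.52.

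CpG content moved with both presence and reads. The CpG ratio (observed over expected CpG dinucleotides from base composition) of the 500 bp around the TSS put 36.6% of the genes in pairs into the top quintile of all coding genes and 2.24% into the lowest quintile, against 18.4% and 21.8% of the other genes. In the lowest quintile, 27.3% of 44 genes in pairs had a region (15.0 to 42.8%), against 5.92% of other genes (5.23 to 6.66%). In the middle quintile the shares were 90.5% (87.2 to 93.1%) for genes in pairs and 78.2% (76.9 to 79.5%) for other genes. In the top quintile they were 96.7% (95.1 to 97.8%) and 95% (94.3 to 95.7%), whose intervals overlap. From the lowest to the top quintile, median reads were 32, 40, 95, 105.5 and 99 for genes in pairs, against 11.5, 19, 43, 71 and 89 for other genes.

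**Figure D2:**
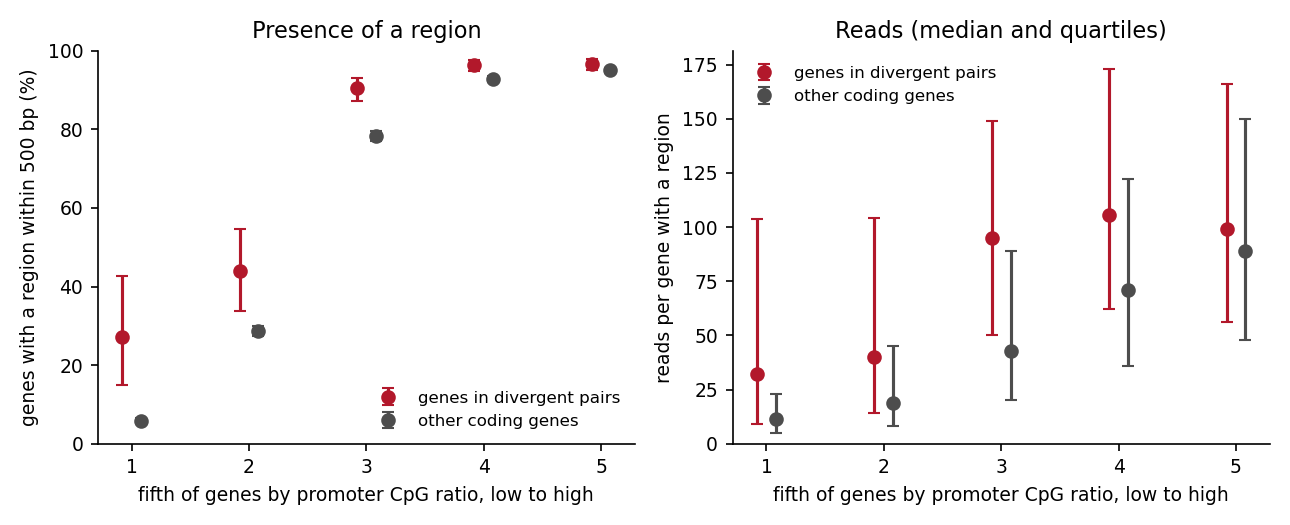
Genes in divergent pairs and other coding genes by quintiles of the promoter CpG ratio, low to high (x axis). Left, percent of genes with a listed region within 500 bp of the TSS, with exact 95% binomial intervals; right, reads per gene with a region, median with quartiles. Shares are closest in the top quintile (96.7% and 95%), and genes in pairs have the higher median in each of the 5 quintiles. Reads of a region shared by a pair count in full for both genes.

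At the level of single regions this order did not hold at low CpG. In the lowest quintile of regions by CpG ratio, members had a median of 3 reads, against 5 reads for other promoter regions, and in the next quintile 4 against 6. In quintiles 3, 4 and 5 members had 27, 62.5 and 70 reads, against 16, 37 and 55. Among pairs themselves, the lowest quintile by CpG ratio had a region in 76.5% of 200 pairs and a median of 85 reads. The other 4 quintiles had a region in 95 to 98% and medians between 93.5 and 111 reads.

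Within the 925 pairs with a region, reads summed per pair had quartiles of 55 and 168, and the median lay just above 100: 466 pairs (50.4%) had at least 100 reads. The percentiles 10 and 90 lay at 27.4 and 250 reads. There were 13 pairs with under 10 reads, among them Syne1/Gm10097, whose listed region had 0 reads. By the boundaries of the list, where regions often abut, 1 region was listed for 369 pairs, 2 for 414, 3 for 130 and 4 for 12. The strongest of them held a median of 99.2% of the pair's reads, so that most pairs had 1 strong region and, where there were more, weak flanking ones.

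That strongest region was usually common to both genes. It was 696 bp wide at the median and covered both TSSs in 801 of the 925 pairs (86.6%). Its midpoint lay a median of 86.5 bp from the midpoint of the pair. It fell between the TSSs in 416 pairs, within the minus-strand gene in 268 and within the plus-strand gene in 241. Among all 999 pairs, the same region lay over both TSSs in 810 (81.1%), different regions lay over them in 39, a region lay over 1 TSS in 60 and over neither in 16. In those 60 the covered TSS was the minus-strand one 29 times and the plus-strand one 31 times.

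The 10 pairs with the most reads had 480 or more. Zfp91/Lpxn, 67 bp apart on chromosome 19, had 775 reads (721.4 to 831.5) in a region 2101 bp wide at chr19:12794716-12796816. Zfp91 encodes a zinc finger ubiquitin ligase and Lpxn leupaxin, an adaptor of focal adhesions. Fiz1, a zinc finger gene on chromosome 7, is paired with both Zfp524 and Gm44973, and 1 region with 603 reads serves both entries. Nfya/Oard1, 108 bp apart on chromosome 17, had 579 reads (532.8 to 628.1). Nfya encodes a subunit of NF-Y, the factor that binds the CCAAT motif, and Oard1 an ADP-ribose hydrolase.

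Pdcd10/Serpini1, whose TSSs are 691 bp apart, had 572 reads (526.1 to 620.9). The human forms of these genes are known for cerebral cavernous malformation (PDCD10) and for neuroserpin (SERPINI1). Fbh1/Ankrd16 had 537 reads, and Fbh1 encodes a DNA helicase. Aasdhppt/Kbtbd3 had 518 reads, and Aasdhppt encodes the enzyme that loads phosphopantetheine onto carrier proteins. Mboat7/Tsen34 had 507 reads, Zfp654/Cggbp1 487 and L3hypdh/Jkamp 480. Of these genes, Mboat7 encodes a lysophosphatidylinositol acyltransferase, Tsen34 a subunit of the tRNA splicing endonuclease and Cggbp1 a protein that binds CGG repeats. Nearest the median of all pairs stood 1700029J07Rik/Ufsp2, Fbxo38/Spink10 and Ndufb11/Rbm10.

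The number of reads differed with the distance between the TSSs. The median distance was 133 bp (quartiles 70.5 and 259.5, range 1 to 996), and pairs fall into 5 classes that are named by their upper limit. Pairs 1 to 100 bp apart had a median of 74 reads (n = 366 with a region), those up to 200 bp apart 111 (n = 245), those up to 300 bp apart 127.5 (n = 122), those up to 500 bp apart 152.5 (n = 96) and those up to 1000 bp apart 130.5 (n = 96). At least 100 reads were found in 31.7% of the closest class and in 71.9% of the class up to 500 bp apart. The share of pairs with any region, in contrast, lay between 90.4 and 95% in all 5 classes, with overlapping intervals.

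The width of the strongest region moved with the distance, and its part in the reads was not tested. The strongest region had a median width of 642, 707, 747, 763 and 741 bp over the 5 classes and a median of 106.6, 152, 171.8, 189.2 and 134.9 reads per kb, so that the widest class lay below the 3 before it. The quartiles of reads overlap between neighbouring classes. Coding pairs with a long noncoding partner had a median of 81 reads in 827 of 1000 pairs, and head-to-head coding pairs 1 to 5 kb apart had 86.5 reads in 352 of 441 pairs, there summed over both promoters.

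**Figure D3:**
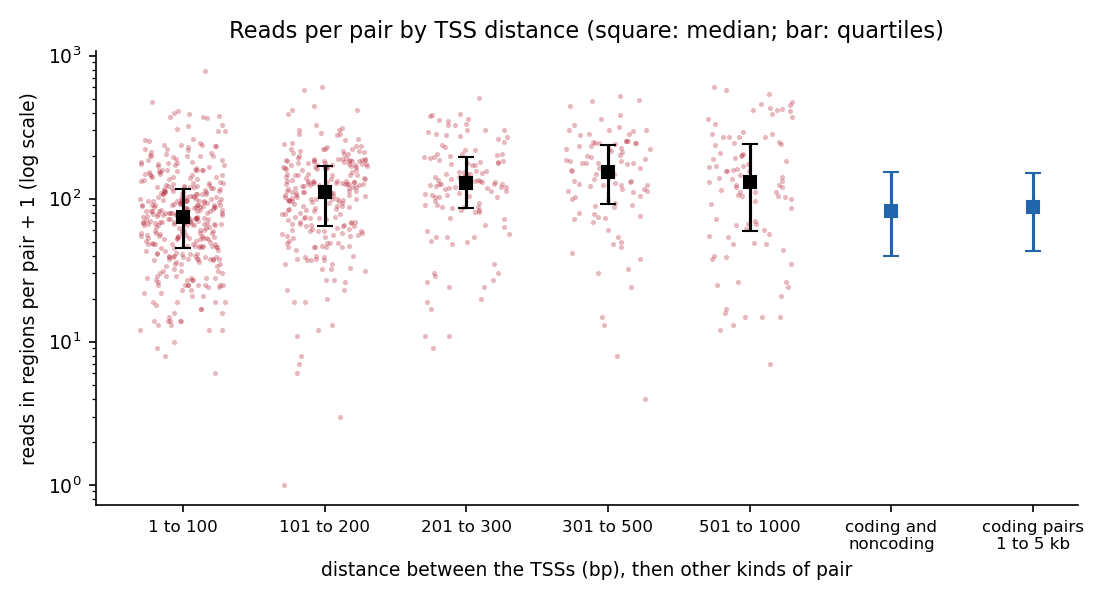
Reads in listed regions per pair, plus 1, on a log scale (y axis) for 5 classes of TSS distance in bp and for coding with long noncoding pairs and head-to-head coding pairs 1 to 5 kb apart (x axis). In the 5 distance classes each point is a pair with a region, and the other kinds of pair are drawn without points. Squares are medians and bars run from quartile to quartile. Medians stand at 74 reads in the closest class and 152.5 reads in the class up to 500 bp.

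Pairs with nearly coinciding start sites had a wide range of reads. The 10 pairs at most 3 bp apart all had a region, with 30 to 397 reads, and 4 of them had at least 100. Dcun1d3/Lyrm1, whose TSSs are 1 bp apart on chromosome 7, had 397 reads (358.9 to 438.0). Thoc6/Hcfc1r1 and Ndufb11/Rbm10 are each 3 bp apart, and had 122 reads (101.3 to 145.7) and a count nearest the median of all pairs. Tpgs2/AW554918, also 3 bp apart, had 255. Thoc6 belongs to the THO complex of mRNA export, and Ndufb11 to complex I of the respiratory chain. The other 6 had 30 to 88 reads, among them Map4k5/Atl1, 2 bp apart, with 75, and Ndufs1/Eef1b2 and Dhrs1/Nop9, 3 bp apart, with 88 and 30.

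In the widest class, over 500 bp, fewer pairs had 1 region over both TSSs. The strongest region covered both TSSs in 96.7% of the closest pairs, in 91.8, 91.0 and 80.2% of the next 3 classes and in 35.4% of the widest class. In that class 34 of 106 pairs (32.1%) had 1 region over both TSSs, and these had a median of 258.5 reads. Another 25 had different regions over the TSSs, with a median of 85 reads. A region lay over 1 TSS only in 33 pairs, with a median of 95 reads, and over neither in 4, and 10 had none. In this class a region over both TSSs must be over 500 bp wide, and the part of width in these values was not tested.

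Where the TSSs had different regions, one side usually held most of the reads. In the 39 such pairs the larger count was a median of 6.5 times the smaller, in 29 it was over 3 times, and in 3 entries both counts reached 50. Of all 1589 members, 1209 (76.1%) directly abut another listed region, against 67.7% of other promoter regions. A split between TSSs may therefore lie at a boundary drawn in the list within 1 open stretch, which was not tested. The examples that follow were chosen after their values were seen. Mkks/Slx4ip, 779 bp apart, had 75 reads over Slx4ip and 2.68 times as many over Mkks, a gene of a chaperonin-like protein whose human form is mutated in McKusick-Kaufman syndrome. Btf3l4/Txndc12, 987 bp apart, had 77 and 56, and Smim7/Tmem38a, 967 bp apart, 183 and 28. P3h4/Fkbp10, 861 bp apart, had 135 over P3h4 and 14 over Fkbp10, both genes of endoplasmic reticulum proteins that act in collagen modification.

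Further one-sided pairs were these. Proser3/Hspb6, 996 bp apart, had 127 reads over Proser3 and 5 over Hspb6, a small heat shock protein gene known from muscle. Tln1/Creb3, 391 bp apart, had 127 reads over Tln1, the gene of the integrin-binding protein talin, and 0 over Creb3. Dok1/Loxl3, 702 bp apart, had 56 reads over Dok1 and 3 over Loxl3, a lysyl oxidase of matrix crosslinking. In Hspa1a/Hspa1l, 547 bp apart, with 89 and 2 reads, the genes have near-identical stretches, so the split of their reads is uncertain.

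The 1 kb limit lay within a continuous range. Just inside it, Proser3/Hspb6 (996 bp) had 132 reads, Btf3l4/Txndc12 (987 bp) 139 and Asphd1/Sez6l2 (981 bp) 14. Just outside it, Nacc1/Trmt1 (1004 bp) had 52, 5330417C22Rik/1700013F07Rik (1005 bp) 34 and Ddias/Prcp (1005 bp) 338.

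Gene families were compared by 13 chosen lists, which leave most of the 999 pairs without a family. Of 142 genes of DNA repair and replication, 48 (33.8%) were in divergent pairs, against 9.0% of all coding genes. Their 48 pairs had a region in 47 cases, with a median of 107 reads (23 to 445). Mcm9/Asf1a, a helicase-like gene and a histone chaperone gene 109 bp apart, had 445 reads, of which 427 lay in a region that stops short of both TSSs on the Mcm9 side. Orc4/Mbd5, with a subunit of the origin recognition complex, had 354 reads. Emc3/Fancd2, with a central gene of the Fanconi anaemia pathway, was lowest with 23.

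Genes of mitochondrial function were frequent in pairs, and the median reads of both families lay below that of all pairs. The median TSS distance was 78 bp for the mitochondrial ribosome and 84.5 bp for the respiratory chain. All pairs 1 to 100 bp apart had a median of 74 reads, and the part of distance was not tested. The mitochondrial ribosome had 25 of 78 genes in pairs (32.1%), and its 24 pairs had a region in 23 cases, with a median of 81 reads (14 to 283). Mrps18b/Ppp1r10 had 283 reads, Mrpl18/Tcp1 243 and Mrpl40/Hira 182, and Eme2/Mrps34 had 14. The partners include Tcp1, a chaperonin subunit, and Hira, a histone chaperone. The respiratory chain had 23 of 87 genes in pairs (26.4%), with a region in 24 of 24 pairs and a median of 76 reads (13 to 296). Vmac/Ndufa11 had 296 reads, Atp5j/Gabpa 292 and Atp5c1/Kin 170, and Fam126b/Ndufb3 had 13. Gabpa encodes an ETS family factor that is known to act on genes of mitochondrial proteins.

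Chaperones had the highest median of the families with at least 5 pairs. Of their 24 genes 9 were in pairs (37.5%), in 8 pairs that all had a region, with a median of 148.5 reads (31 to 384). Hsp90b1/Ttc41 had 384 reads, and Hsp90b1 encodes the HSP90 form of the endoplasmic reticulum. Hspd1/Hspe1 had 214 reads (186.3 to 244.7), and its genes encode the chaperonin subunits HSP60 and HSP10, which work together in mitochondria. Pfdn6/Wdr46, with a prefoldin subunit, had 31.

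Protein synthesis and turnover were represented by smaller groups. Of the tRNA synthetase genes 9 of 38 were in pairs (23.7%), with a region in 8 of 8 pairs and a median of 98 reads. S100pbp/Yars had 190 reads, Lyrm4/Fars2 123 and Orc3/Rars2 55, and in Mrps12/Sars2, with 124, a mitochondrial ribosomal protein gene faces a mitochondrial synthetase gene. The proteasome had 10 of 50 genes in pairs, with a region in 8 of 10 pairs and a median of 97 reads. Psme2/Rnf31 had 238, Mrpl32/Psma2 173, Psmd10/Atg4a 109 and Psmb1/Tbp 52, where Tbp encodes the TATA-binding protein. The cytosolic ribosome had 12 of 82 genes in pairs (14.6%), with a region in 10 of 12 pairs and a median of 65 reads, with 237 at Rpl15/Nkiras1, 198 at Sphk2/Rpl18, 98 at Rps27a/Clhc1 and 26 at Iqcg/Rpl35a. At Sphk2/Rpl18, 109 of the reads lay in a region more than 2 kb from the closest TSS pair, by another start site.

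Cell cycle genes were in pairs for 16 of 85 (18.8%), with a region in 15 of 16 pairs and a median of 98 reads. Usp5/Cdca3 had 382 reads (344.6 to 422.3), and Cdca3 encodes a trigger of mitotic entry. Vps26b/Ncapd3 had 239. Ift80/Smc4, with a condensin subunit, had 203, and Zfpl1/Cdca5, with the cohesin regulator sororin, had 29. Zinc finger genes were in pairs for 30 of 465 (6.45%), with a region in 26 of 26 pairs and a median of 113 reads, with Zfp91/Lpxn highest and Zfp169/A830005F24Rik lowest at 22.

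The histone genes were the family most often in pairs and the one with the lowest presence among those with at least 5 pairs. Of the replication-dependent histone genes, which are used when DNA is copied, 27 of 67 (40.3%) were in 14 pairs, and in 13 of these both genes are histones. A region was listed for 7 of the 14, with 151 reads at Hist1h2ac/Hist1h2bc, 125 at Hist1h2ah/Hist1h2bk, 120 at Hist1h2bh/Hist1h3f and 61 at Hist1h2bf/Hist1h2ad. The pairs with no listed region include 4 neighbours of the same cluster, Hist1h2ak/Hist1h2bn, Hist1h2an/Hist1h2bp, Hist1h2bq/Hist1h2ao and Hist1h2ap/Hist1h2br. Neighbouring pairs without a region may lie in 1 gap of the list. Histone genes are near-identical copies, so reads between them are uncertain.

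On the lists used here, genes of the tooth and of other specialised tissues were in pairs less often than the 9.0% of all coding genes. None of 81 tooth and skeletal factors was in a divergent pair. Of 65 collagen and matrix genes 3 were (4.62%), in Dok1/Loxl3 with 85 reads and in Col4a4/Col4a3 with 10 (4.80 to 18.4). This small list is not whole: P3h4/Fkbp10, with genes of collagen modification, and Mmp11/Chchd10 are pairs that are not on it. Col4a3 and Col4a4 encode chains of the type IV collagen of basement membranes. Of 1888 listed immune and other tissue-restricted genes 12 were (0.636%), with a region in 9 of 12 pairs. That list goes by gene symbol and is not whole. Abcg5/Abcg8 and Duox2/Duoxa2, pairs of restricted use given below, are not on it, so the share holds for the list only. ATAC-seq reads do not separate the genes of a pair here. Nt5c3/Vmn1r4 had 297 reads beside a vomeronasal receptor gene, Atf5/Il4i1 245 and Brd2/H2-DMa 119. Il17rb/Chdh and Cxcl16/Zmynd15 had 11 each.

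**Figure D4:**
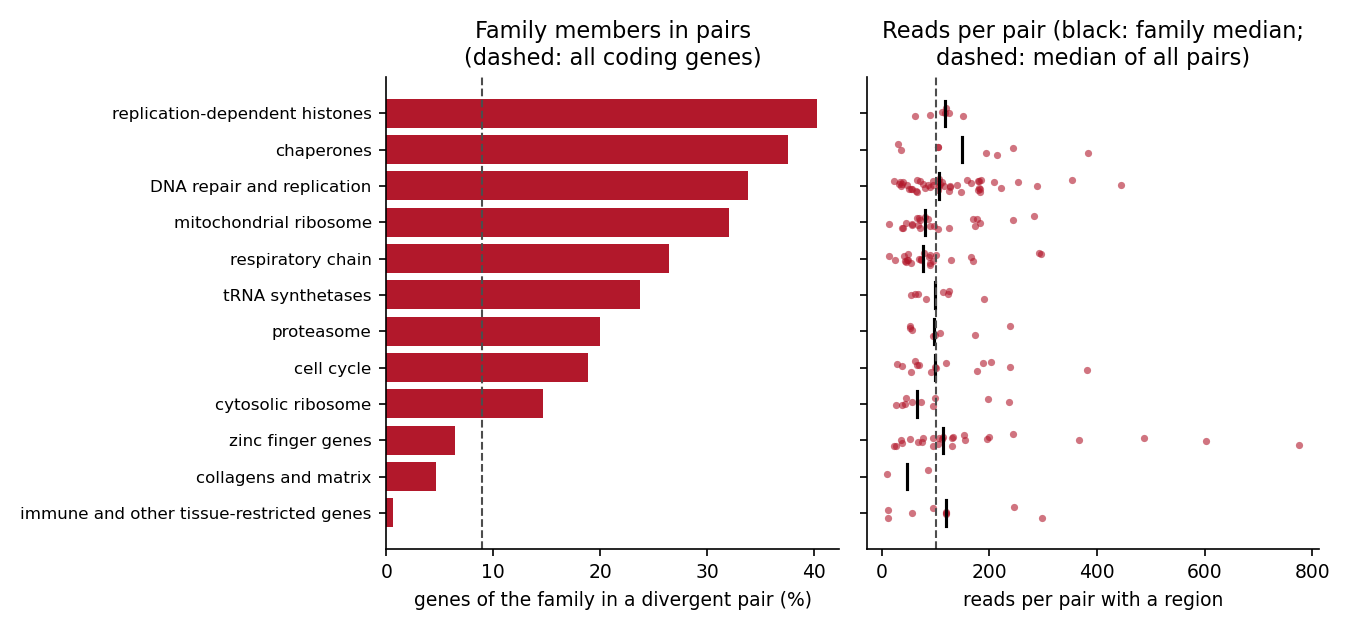
Left, percent of each gene family's members that lie in divergent pairs (bars), with all coding genes at 9.0% (dashed line). Right, reads per pair with a region (points), family medians (black bars) and the median of all pairs (dashed line); chaperone pairs have the highest median, 148.5 reads, among families with at least 5 pairs.

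The 74 pairs with no listed region form a mixed group. Their promoters had a median CpG ratio of 0.568 and a GC content of 55.2%, against 0.840 and 62.4% for pairs with a region. Some join genes of restricted use, such as Abcg5/Abcg8, the sterol transporters of liver and gut, Duox2/Duoxa2, an oxidase and its maturation factor in the thyroid, and Smyd1/Cd8b1, a muscle gene and a T cell gene. Others hold genes needed in every cell: Zwilch/Rpl4 and Trappc4/Rps25 with cytosolic ribosome genes, Ftsj3/Psmc5 and Psma7/Ss18l1 with proteasome genes, Mrpl43/Twnk with the mitochondrial helicase Twinkle, Pinlyp/Xrcc1 with a DNA break repair gene and Alyref/Anapc11 with a subunit of the anaphase-promoting complex. The nearest listed region was a median of 11978 bp away, and over 10 kb away in 39 of the 74. That a region is not listed is no measurement of closed chromatin at these genes.

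The sequence under the strongest regions was compared in a window of 300 bp around their midpoints, for 900 distinct divergent regions and 11260 other promoter regions. The divergent windows had a lower GC content, 63.7% against 66.3%, and a higher CpG ratio, 0.860 against 0.820. The 12 motifs, each searched on both strands, were spelled out as given above and as AAGATGG for YY1, TGACGTCA for CREB, CACGTG for the E-box, TGANTCA for AP-1, TGTGGTT for RUNX and TAATTA for homeobox factors. A match is a description of letters, not of a bound factor.

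For 5 of the 12 motifs the intervals of both sets did not overlap. ETS matches were found in 26.1% of divergent windows (23.3 to 29.1%) and 14.8% of other windows (14.1 to 15.5%). NFY matches were found in 40.4% (37.2 to 43.7%) and 30.5% (29.6 to 31.3%). ZNF143 matches were found in 6.11% (4.64 to 7.88%) and 2.64% (2.35 to 2.95%), YY1 matches in 10.2% (8.32 to 12.4%) and 6.64% (6.19 to 7.12%), and NRF1 matches in 6.33% (4.83 to 8.13%) and 4.08% (3.72 to 4.46%). Weighting the other windows to the GC content of the divergent ones gave 15.4% for ETS, 33.3% for NFY, 3.15% for ZNF143, 6.90% for YY1 and 4.13% for NRF1. These windows are centred on regions and not on TSSs, and densities placed by TSS are given below.

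For the other 7 motifs the intervals overlapped. CREB matches were found in 3.89% (2.72 to 5.37%) and 2.67% (2.38 to 2.99%). SP1 matches were found in 71.9% of divergent (68.8 to 74.8%) and 68.9% of other windows (68.1 to 69.8%), and with GC weighting the other windows were at 63.9%, below the divergent interval. SP1 densities placed by TSS, given below, do not show this order. E-boxes were found in 9.33% and 8.43%, TATA matches in 3% and 3.54%, AP-1 in 2.89% and 3.38%, RUNX in 2.67% and 2.64% and homeobox in 1.33% and 1.33%. AP-1, RUNX and homeobox factors are known for enhancers of the skeleton and tooth.

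ETS and NFY letters were spread differently over the distance classes of the 925 pairs. ETS matches were in 35.2% of windows of pairs 1 to 100 bp apart and in 24.5, 18.9, 17.7 and 17.7% of the wider classes. NFY matches were in 29.5% of the closest class and in 46.9, 52.5, 49 and 47.9% of the wider ones. CREB matches were in 5.19, 4.08, 4.10, 1.04 and 0% over the same classes. SP1 matches stayed between 69.7 and 75.9%.

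**Figure D5:**
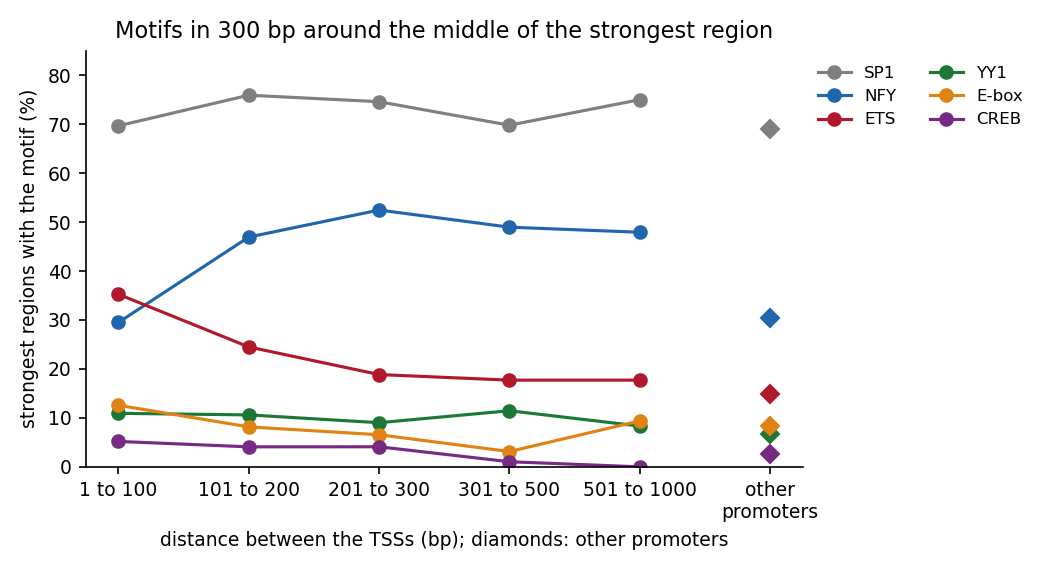
Percent of strongest regions with a motif in the 300 bp around their midpoint (y axis), for 5 classes of TSS distance in bp and for other promoters (diamonds at right). ETS matches are most frequent in the closest pairs (35.2%), and NFY matches in the class up to 300 bp (52.5%), against 14.8% and 30.5% of other promoters.

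Matches were also counted per kb of the stretch between the TSSs of pairs with a region, where overlapping matches on both strands count each. For ETS the closest class was again highest, and for NFY the widest class was lowest. ETS had 3.69 matches per kb (2.91 to 4.62) at 1 to 100 bp, 1.35 up to 200 bp, 0.803 up to 300, 0.66 up to 500 and 0.297 up to 1000 bp. Other genes with a region had 1.01 (0.928 to 1.09) in the 50 bp upstream of their TSS, 0.792 in 100 bp and 0.549 in 200 bp. NFY had 2.82 per kb (2.14 to 3.64) in the closest class, 5.11 (4.39 to 5.92) and 5.06 (4.28 to 5.93) in the next 2, 3.73 up to 500 and 2.30 up to 1000 bp, against 2.28, 2.68 and 2.21 in those upstream windows of other genes. A stretch between paired TSSs is upstream of both genes, so it holds the proximal sequence of each. Over all classes NRF1 had 0.384 (0.301 to 0.484), against 0.454, 0.374 and 0.2575 in those upstream windows, and only the 200 bp interval (0.237 to 0.279) lay apart. YY1 had 0.171 and ZNF143 0.2295, with intervals that overlap those of every upstream window. Inside paired and other genes, YY1 had 0.379 and 0.290 and ZNF143 0.108 and 0.0428, with intervals apart. NRF1 had 0.1165 and 0.096 there. Inside the paired genes, in the first 200 bp, NFY was at 0.864 matches per kb and ETS was at 0.653. SP1 had 8.50 matches per kb (7.285 to 9.85) in the closest class and 8.16, 5.625, 5.34 and 3.76 in the wider ones. Other genes had 8.71 (8.47 to 8.96), 8.05 and 5.82 in the 50, 100 and 200 bp upstream. Inside genes SP1 was at 2.93 for paired and 3.82 for other genes, the reverse of the GC-weighted window shares.

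The printed sequences are examples only, since the ETS and NFY pairs described next were picked for having those matches. Nudt6/Spata5 had 477 reads and 1 ETS match, Bbip1/Shoc2 412 reads and 1, and Sdhaf2/Cpsf7 203 reads and 1. Bbip1 encodes a part of the BBSome of cilia, Shoc2 a scaffold of Ras signalling, Sdhaf2 an assembly factor of succinate dehydrogenase and Cpsf7 a subunit of the mRNA 3′ end machinery. Setd3/Ccnk had 376 reads and 3 NFY with 7 SP1 matches, and Ggps1/Arid4b 347 reads and 3 NFY matches. Setd3 encodes the histidine methyltransferase of actin, Ccnk cyclin K, and Ggps1 the enzyme that makes geranylgeranyl diphosphate. The pair with the most reads, Zfp91/Lpxn, has none of the 12 spelled out between its TSSs.

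Windows with NFY letters had the higher median in both sets, and for ETS letters the sets differed in direction. In divergent promoters the median was 113.5 reads with and 84 without an NFY match, and 85 with and 102 without an ETS match. In other promoters it was 68 with and 51 without an NFY match, and 66 with and 54 without an ETS match. TSS distance moves with both motifs and with reads, as given above, and its part in these values was not tested. With 0, 1, 2, 3 and at least 4 of the NRF1, ETS, SP1, NFY and YY1 motifs present, divergent promoters had medians of 84.5, 88.5, 105, 115 and 128 reads (n = 88, 350, 355, 93 and 14), against 26, 52, 74.5, 82 and 73.5 reads in other promoters.

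Pairs were spread over the chromosomes unevenly. Chromosome 12 had 13.2% of its coding genes in pairs and chromosome 13 12.2%, against 5.43% on chromosome 6, 5.70% on X and 0 on Y. Chromosome 11 held the most pairs, 90.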

How the data were processed

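ATAC-seq was measured in 4 sequencing lanes of 1 library from incisor dental mesenchyme, which share 1 column of values, so there was 1 group and no replicate. Per the labels' protocols, the steps were BWA-MEM alignment to mm10, MACS2 peak calling and HOMER annotation. STAR 2.6.1d and Partek, without a role, come from the submitters' processing notes. The sources used here do not say if duplicates were removed, if ends were shifted or if fragments were counted in place of reads, and unremoved duplicates would raise some counts. The authors deposited values in CPM for 121574 regions, with 1 read added before scaling. Values were divided by the smallest (0.0484, the value of 1 read), 1 was subtracted and the result was rounded, and 84 values were not whole within 0.01 read. The shorter table of expected counts, held here for part of the genome, was not used, nor was 1 column of values with no sample.

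TSSs came from GENCODE vM21 basic transcripts and sequences from the mm10 FASTA of RefSeq. Region coordinates are 1-based. Python 3.11.15, numpy 2.4.6, pandas 2.3.3, scipy 1.17.1, pysam 0.24.0 and matplotlib 3.10.9 were used, and the scripts were checked on simulated data. Pairs were named by rank of reads (top 10, nearest to the median), by TSS distance (narrowest and widest with at least 100 reads, a tie included) and within 13 gene families (3 highest, 1 lowest); others are said to be chosen after their values were seen. Members and lists were chosen with earlier results of these data known, and the pattern for collagen genes was corrected after its matches were seen. Some pairs that these rules name are not reported here.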

Additional observations from a re-analysis of the deposited data

How the results depend on the processing

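Of 10 alternatives, 1 of them (strongest region with CpG weighting together) chosen after seeing the data, none turned round the direction of a ratio of medians of divergent over other promoter regions. For reads per region, 2.43 as reported, the ratio was 6.54 without the margin of 500 bp, 1.68 with regions under 10 reads left out, 1.73 for the strongest region of each promoter, 1.62 weighted to CpG content and 1.52 with both of the last. For reads per kb, 1.75 as reported, these were 3.38 without the margin, 1.42 without weak regions, 1.33 weighted to CpG and 1.35 with both, and 1.47 for the strongest region. For width, 1.31 as reported, they were 1.80, 1.15, 1.17, 1.14 and 1.12 in the order given for reads. Other alternatives (TSS distance up to 500 bp, most upstream TSSs, histones left out, abutting regions merged, opposite noncoding TSSs left out) gave 2.04 to 2.71 for reads. The share of pairs with a region, 92.6%, ranged from 91.1 to 93.6%. The cause of these shifts was not tested. The 2 sides follow unlike rules as reported too. The margin brings in weak flanking regions, which without it count among the other regions, so that the sides are more unlike there. The median region holds 7 reads, so that small regions differ within counting error. Leaving out a lane could not be run, since lanes share a column. No paired analysis was possible because there is 1 group with 1 column of values.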
